A study of Homo sapiens with 9 samples.

Results

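The homeodomain-interacting protein kinases are encoded by 4 human genes, HIPK1, HIPK2, HIPK3 and HIPK4, and all 4 were found by symbol among the 58735 genes of the deposited count table. HIPK3 was chosen because it was among the genes most raised when CDO1 was silenced, so its own levels and fold changes are given as a description without a test. HIPK1, HIPK2 and HIPK4 were chosen by name as its paralogs and were tested where their counts allowed. RNA was measured in VCaP, an established human prostate cancer cell line, after the cells had received either of 2 siRNAs against CDO1, named siCDO1A and siCDO1C, or a control siRNA named siCtrl. CDO1 encodes cysteine dioxygenase, the enzyme that oxidises cysteine on the way to taurine. Each group had 3 libraries, 9 in all, and every group was grown with 10% fetal bovine serum and 2 nM dihydrotestosterone (DHT). All libraries come from 1 cell line and from transient silencing. The control siRNA was not further described in the sources used here. Both CDO1 siRNAs were compared with this same control, so that effects of the control siRNA and of CDO1 loss cannot be told apart.

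HIPK proteins are serine/threonine kinases, close relatives of the DYRK kinases, that bind homeodomain transcription factors and phosphorylate transcription factors and co-repressors in the nucleus. HIPK2 is best known as a kinase of p53 after DNA damage and is kept low by ubiquitin ligases such as SIAH1. HIPK3 was described as a kinase that binds FADD, the adaptor of death receptors. HIPK4 lacks the homeodomain-interacting part and is mainly a testis gene.

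The genes lie on 4 chromosomes of hg38. HIPK1 (ENSG00000163349) spans chromosome 1 from 113929192 to 113977869 on the plus strand, and HIPK2 (ENSG00000064393) chromosome 7 from 139561570 to 139777778 on the minus strand. HIPK3 (ENSG00000110422) spans chromosome 11 from 33256672 to 33357023 on the plus strand, and HIPK4 (ENSG00000160396) chromosome 19 from 40379271 to 40390187 on the minus strand. No window of 50 bases of any annotated HIPK transcript was found in a transcript of another HIPK gene. The antisense gene HIPK1-AS1 overlaps HIPK1 by 301 bases and had from 0 to 4 counts per library, against at least 1184 for HIPK1.

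The 3′UTRs of the members differed in 1 short word, which is shown here because it was frequent among the genes higher with both siRNAs. The word GCAGTACA led a search of all 65536 words of 8 letters on the transcript strand, made without the HIPK genes. The stretches of 30 bases around its copies in HIPK1 and HIPK3 follow, with those around the shorter word GCAGTAC in HIPK2 and at a second place in HIPK3. The word found is in capitals, and the bases come from GENCODE 44 transcripts.
HIPK1, 8 letters: cactacatgtaGCAGTACAttatatgtaca
HIPK3, 8 letters: agtaaaaaccaGCAGTACAtttttagtcac
HIPK3, 7 letters: atttttacattGCAGTACttgttttgcttg
HIPK2, 7 letters: ggctcggaataGCAGTACttttccactttg
Counting from 1 at the first base after the stop codon of the longest annotated 3′UTR, the word lay at 3838 to 3845 of 4357 bases in HIPK1 and at 2166 to 2173 of 3455 bases in HIPK3. The 7-letter word lay at 1162 to 1168 in HIPK3 and at 5733 to 5739 of 11357 bases in HIPK2. All 3 annotated 3′UTRs of HIPK3 held the 8-letter word, against 5 of 9 for HIPK1 and 0 of 3 for HIPK2. The shorter word is part of the longer one, and it was held by 44.9% of the genes higher with both siRNAs and by 8.76% of the other genes tested. The single 3′UTR of HIPK4, of 316 bases, held neither word.

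Total counts were between 12061295 and 16073698 per library, with a median of 13243375, and 15555 genes passed the filter on low counts. CDO1, the targeted gene, had 14.0 ± 0.277 CPM (the count relative to the total of its library, scaled by TMM) in control cells. It had 2.50 ± 0.675 CPM with siCDO1A and 1.69 ± 0.976 CPM with siCDO1C (SD, n = 3 each). In replicates 1 to 3, CDO1 was at 3.281, 2.053 and 2.181 CPM with siCDO1A and at 1.096, 2.815 and 1.155 CPM with siCDO1C. Of the siCDO1C libraries, replicate 2 thus held the most CDO1. All 9 VCaP and prostate markers were expressed, with group means in siCtrl cells of at least 40.4 CPM. The summed group means were at most 0.335 CPM for 4 blood markers, at most 2.03 CPM for 3 endothelial markers and between 15.3 and 21.3 CPM for 4 fibroblast markers. Of the fibroblast markers, LUM alone had 16.76, 17.06 and 12.2 CPM in siCtrl, siCDO1A and siCDO1C cells. COL1A1 had 2.403, 4.086 and 3.066 CPM, and COL3A1 and DCN at most 0.1146 CPM. A library in each silenced group lay apart from the others of its group on the second principal component of the 11337 better expressed genes. These were siCDO1C replicate 2 at 13.3 against -10.1 and -13.0, and siCDO1A replicate 3 at -7.45 against 3.54 and 1.51. Results of these groups are therefore also given without these libraries, a choice made after seeing the data for the shares and gene lists. The labels call the libraries biological replicates but do not describe the cultures, so that p-values measure the spread between these libraries.

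HIPK3 was the lowest of the 3 expressed members in control cells and was higher with both siRNAs. It had 31.6, 31.9 and 28.2 CPM in siCtrl replicates 1 to 3. The siCDO1A libraries had 79.1, 72.5 and 96.7 CPM, and the siCDO1C libraries 88.3, 67.8 and 92.7 CPM. The lowest library with an siRNA against CDO1 thus held more HIPK3 than any control library, from raw counts of 400 to 454 in control and 891 to 1463 in silenced cells. For siCDO1A the log2 fold change came to 1.44 (standard error 0.0947, 95% confidence interval 1.25 to 1.64), a 2.72-fold difference, and 1.31 without siCDO1A replicate 3. With siCDO1C it was 1.44 (standard error 0.113, interval 1.19 to 1.68), a 2.71-fold difference, and 1.57 without siCDO1C replicate 2. These values chose the gene and are not tested. In RNA from whole cultures, a change within each cell and a change in the share of cells that express the gene cannot be told apart. Only 21 of the 15555 genes, HIPK3 included, had a log2 fold change at or above that of HIPK3 with siCDO1A, and 19 with siCDO1C. The 2 comparisons share the siCtrl libraries and are not independent of each other.

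Set directly against each other, siCDO1C and siCDO1A libraries overlapped in HIPK3. The log2 difference was -0.002 with a 95% confidence interval from -0.27 to 0.26, or from 0.832-fold to 1.20-fold. Without siCDO1C replicate 2 it was 0.12, with an interval from -0.07 to 0.32, and without siCDO1A replicate 3 it was 0.14.

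HIPK1 rose with both siRNAs, with smaller fold changes than HIPK3. Its level in siCtrl cells was 107, 94.3 and 93.7 CPM in replicates 1 to 3. It was 114, 113 and 138 CPM in siCDO1A cells and 143, 107 and 138 CPM in siCDO1C cells. Every library of silenced cells lay above every control library, although siCDO1C replicate 2 did so by less than 1 CPM. Of all genes tested, 15.2% lay wholly above siCtrl with siCDO1A and 12.1% with siCDO1C. For siCDO1A the log2 fold change of HIPK1 came to 0.31 (standard error 0.0766, 95% confidence interval 0.15 to 0.47, adjusted p = 0.00901, quasi-likelihood test of edgeR). With siCDO1C it was 0.39 (standard error 0.102, interval 0.17 to 0.61, adjusted p = 0.0406). With siCDO1A 7.37% of all genes tested were called higher and 7.48% lower, 14.8% in all, and with siCDO1C 2.27% and 2.5%, 4.77% in all. Called higher with both siRNAs were 1.9%, and lower with both 1.72%. With the replicate number as a block, the genes called with siCDO1A numbered 1358 of the 15555 tested, in place of 2309, and without siCDO1A replicate 3 they numbered 3454.

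The calls of HIPK1 depended on single libraries. With siCDO1A the call was lost without siCtrl replicate 2 (log2 fold change 0.28, adjusted p = 0.0632) and in 1 fit of all 9 libraries (adjusted p = 0.0699). Without siCDO1A replicate 3 the rise was smaller, at 0.21 (adjusted p = 0.0116). With siCDO1C it was lost without any 1 of siCtrl replicates 1, 2 and 3 or of siCDO1C replicates 1 and 3, with adjusted p-values of 0.0697, 0.195, 0.189, 0.163 and 0.110. Without siCDO1C replicate 2 the rise was larger, at 0.51 (adjusted p = 5.33e-07). No difference between the siRNAs was detected in HIPK1, with a log2 difference of 0.09 for siCDO1C against siCDO1A and an interval from -0.15 to 0.32 (adjusted p = 0.959, with 0.444% of all genes called in this comparison), or 0.20 without either siCDO1C replicate 2 (adjusted p = 0.188) or siCDO1A replicate 3 (adjusted p = 0.670).

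HIPK2, the most abundant member, did not pass the threshold in any of the 3 comparisons. It had 453, 420 and 440 CPM in siCtrl replicates 1 to 3, and 362, 368 and 436 CPM in siCDO1A replicates 1 to 3. In siCDO1C cells it had 469, 294 and 462 CPM. Control and silenced libraries overlapped with both siRNAs, and the siCDO1C group held both the highest and the lowest library of the 9. With siCDO1A the log2 fold change was -0.17 (standard error 0.0624, 95% confidence interval -0.30 to -0.04, adjusted p = 0.0739). It passed the threshold without siCDO1A replicate 3 (-0.26, adjusted p = 3.10e-05) and without the filter on low counts (-0.16, adjusted p = 0.0418). With siCDO1C it was -0.11 (standard error 0.162, interval -0.48 to 0.26, adjusted p = 0.793), and the sign turned without siCDO1C replicate 2, to 0.08 (adjusted p = 0.265). Between the siRNAs the log2 difference was 0.07, with an interval from -0.31 to 0.45 (adjusted p = 0.983), and 0.26 without siCDO1C replicate 2 (adjusted p = 0.0510) or 0.17 without siCDO1A replicate 3 (adjusted p = 0.866).

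HIPK4 had 1 count in siCtrl replicate 1, in siCDO1A replicate 2 and in siCDO1A replicate 3, and 0 counts in the other 6 libraries. It was removed by the filter on low counts and was not tested. A count of 0 allows up to 3 counts, or between 0.187 and 0.249 CPM depending on the library, counting error alone considered.

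**Figure D1:**
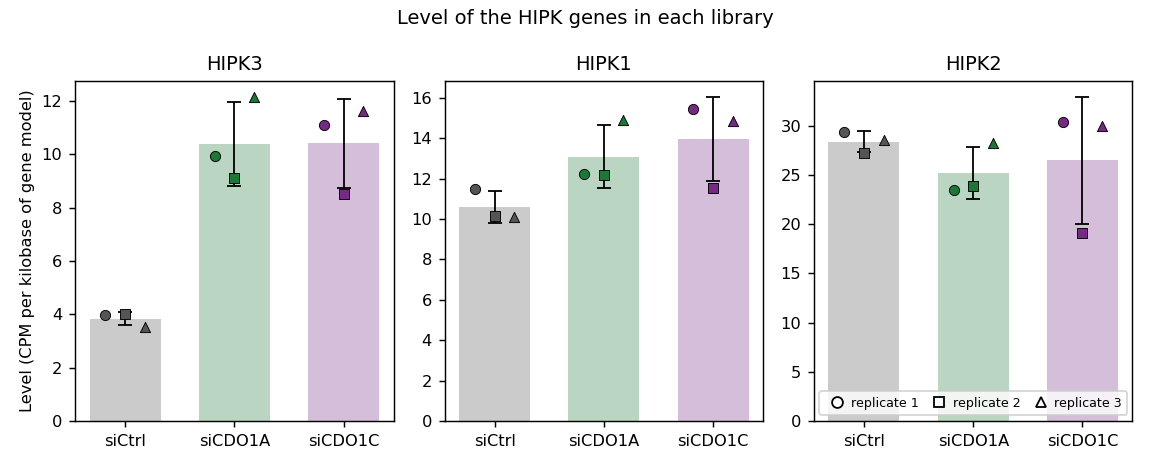
Level of HIPK3, HIPK1 and HIPK2 in each library, in CPM per kilobase of the deposited gene length. Points are libraries (shape gives the replicate number), bars the mean and error bars the SD of 3 libraries, and each panel has its own axis from 0. HIPK3 lies from 3.54 to 4.002 in siCtrl cells and from 8.52 to 12.1 in silenced cells, whereas the HIPK2 libraries overlap between groups.

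**Figure D2:**
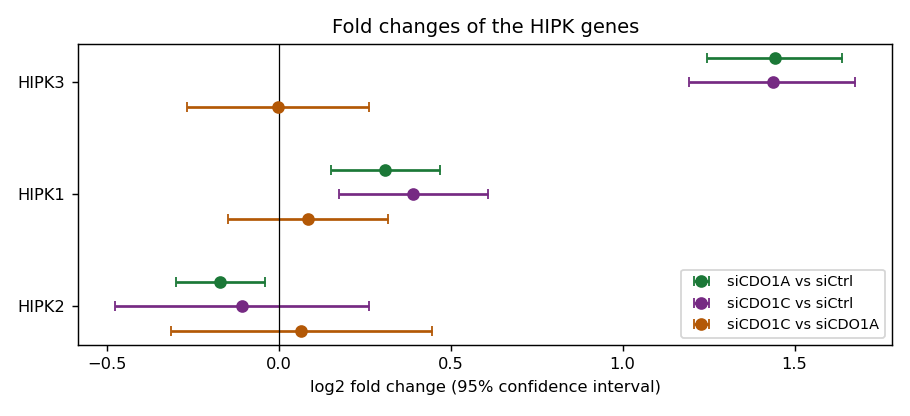
Log2 fold change of HIPK3, HIPK1 and HIPK2 in the 3 comparisons, with 95% confidence intervals from the edgeR fits of 3 against 3 libraries. The HIPK3 intervals against siCtrl lie above 1.19, those of HIPK1 between 0.15 and 0.61, and all 3 intervals of siCDO1C against siCDO1A include 0.

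In the plot of levels by library, siCDO1A replicate 3 was the highest of its group and siCDO1C replicate 2 the lowest of its group for HIPK1, HIPK2 and HIPK3 alike. The part of library differences in these values was not tested.

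Levels of different genes were compared per length, as CPM per kilobase. The order was HIPK2, HIPK1, HIPK3 and HIPK4 in every group. In siCtrl cells HIPK2 had 28.4 ± 1.07 CPM per kilobase, HIPK1 10.6 ± 0.787 and HIPK3 3.84 ± 0.258 (SD, n = 3). With siCDO1A the levels were 25.2 ± 2.66, 13.1 ± 1.56 and 10.4 ± 1.57, and with siCDO1C 26.5 ± 6.43, 13.9 ± 2.09 and 10.4 ± 1.67. HIPK1 and HIPK3 were well separated in control cells, but their ranges overlapped in siCDO1C cells (11.5 to 15.4 for HIPK1 and 8.52 to 11.7 for HIPK3) and met in siCDO1A cells at 12.2 and 12.1. Within each library HIPK1 remained the higher of the pair. The ratio of HIPK1 to HIPK3 was 2.76 ± 0.192 in siCtrl, 1.26 ± 0.0613 in siCDO1A and 1.34 ± 0.0596 in siCDO1C libraries. That of HIPK2 to HIPK3 was 7.43 ± 0.628, 2.44 ± 0.160 and 2.52 ± 0.255.

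The make-up of the family differed between control and silenced cells, a description that contains the change for which HIPK3 was chosen. HIPK3 made up 8.86%, 9.66% and 8.39% of the summed level per length in siCtrl libraries. Its share was 21.8%, 20.2% and 21.9% in siCDO1A libraries and 19.5%, 21.8% and 20.6% in siCDO1C libraries. The share of HIPK2 was lower in silenced cells, with means of 66.3 ± 1.20% in control cells, 51.8 ± 0.933% after siCDO1A and 51.8 ± 2.62% after siCDO1C. The mean share of HIPK1 was 24.7 ± 0.858%, 26.8 ± 0.0761% and 27.6 ± 1.68%. Without siCDO1C replicate 2, the mean HIPK3 share in siCDO1C cells was 20.1%. The summed level of the family was 42.9 ± 1.80 CPM per kilobase in siCtrl, 48.8 ± 5.74 in siCDO1A and 50.9 ± 10.1 in siCDO1C cells, with 1 siCDO1C library below all controls, at 39.1.

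**Figure D3:**
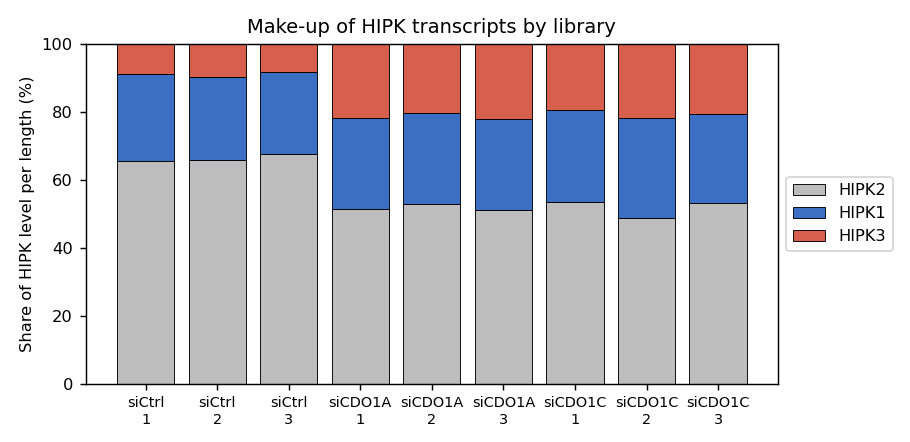
Share of HIPK2, HIPK1 and HIPK3 in the summed HIPK level per length, in percent, for each of the 9 libraries; HIPK4, at most 0.0708%, is too small to be seen. The HIPK3 part is between 8.39% and 9.66% in siCtrl libraries and between 19.5% and 21.9% in all 6 libraries with an siRNA against CDO1.

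The word shown above was also read across all other genes with an annotated 3′UTR. Among the genes higher with both siRNAs, HIPK genes left out, 66 of 274 (24.1%) held GCAGTACA in a 3′UTR, against 354 of the other 12719 genes tested (2.78%) and 524 of 19651 genes with an annotated 3′UTR (2.67%). Because the word was chosen for this excess, the counts are a description and not evidence for it. Genes lower with both siRNAs held it in 1 of 250 cases (0.400%). For 3′UTRs of 2000 to 5000 bases, the length class of HIPK1 and HIPK3, the word was present in 37 of 116 genes higher with both (31.9%) and in 181 of 4591 others (3.94%). No mature miRNA among the 2370 in the RefSeq table had a seed (bases 2 to 8) that pairs with it. The word is not shown to act on any HIPK transcript, and its match to the siRNAs was not tested because their sequences are not given in the sources used here.

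The fold changes of genes that hold the word were mostly below that of HIPK3, and they too contain the choice of the word. With siCDO1A, 24.8% of the 420 holders were higher and 6.19% lower, with a median log2 fold change of 0.09, against 7.44% higher, 8.56% lower and a median of 0.0036 in 12573 genes without it. With siCDO1C the holders were higher in 16.4% and lower in 0.714%, with a median of 0.09, against 2.04%, 2.86% and -0.0016. Without siCDO1C replicate 2, 29.5% of holders and 6.80% of other genes were higher with siCDO1C, and without siCDO1A replicate 3 26.9% and 11.8% were higher with siCDO1A. HIPK1, at 0.31 and 0.39, lay above these medians, and HIPK3 near the top of the range. The fold change of HIPK3 was reached by 0.238% of holders with siCDO1A and 0% with siCDO1C. Among genes without the word the shares were 0.0716% and 0.0477%. HIPK3 was chosen for its rise, so that few genes with or without the word could reach it.

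**Figure D4:**
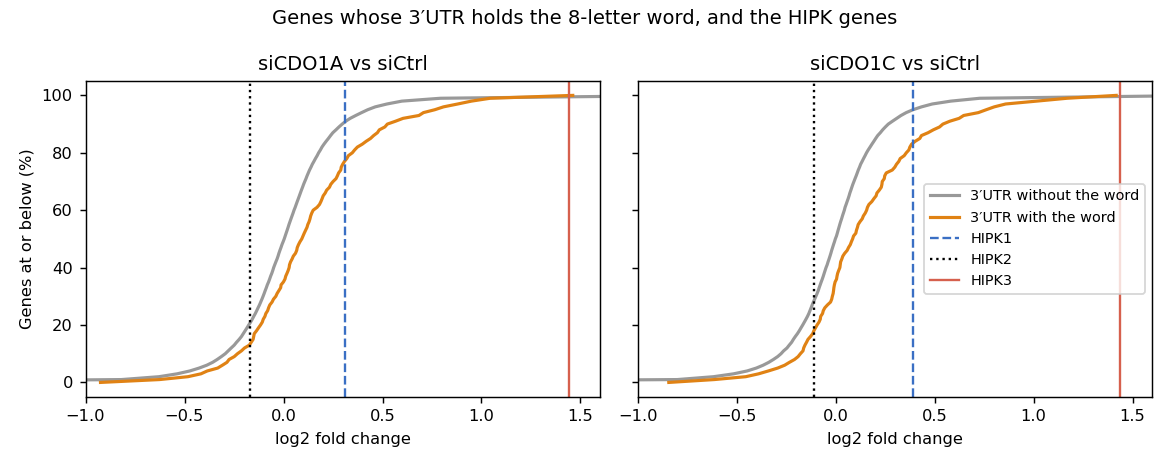
Cumulative distribution of log2 fold changes of 420 genes whose 3′UTR holds the 8-letter word (orange) and 12573 genes without it (grey), with the HIPK genes, which are in neither curve, as vertical lines. The x axis is cut at -1 and 1.6. The orange curve runs to the right of the grey one in its middle part, and HIPK3 lies at its upper end at 1.44 in both panels. HIPK2, which holds the 7-letter but not the 8-letter word, lies below 0 but was called in neither comparison. Its sign with siCDO1C turned without siCDO1C replicate 2.

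Across the 9 libraries, the genes whose log2 CPM was most like that of HIPK3 were EMP2, which encodes a membrane protein of epithelia (Pearson correlation 0.987), ICMT, the methyltransferase of prenylated proteins (0.985), RTF1, a transcription elongation factor (0.983), DNMT1, the maintenance DNA methyltransferase (0.983), and IPO11, a nuclear import receptor (0.982). Each was higher with both siRNAs, with log2 fold changes from 0.48 to 1.04. All but RTF1 held the 8-letter word in an annotated 3′UTR, DNMT1 not in its longest. The word was chosen among genes higher with both siRNAs, so that this too is a description. HIPK1 ranked 371st in this likeness, with a correlation of 0.862, and HIPK2 had -0.152. The 9 points share 3 groups, so that any gene separating control from silenced cells scores high. Ranked by Spearman correlation, 0 of these 5 genes remained among the first 5. By that measure HIPK1, at 0.933, was level with EMP2, ICMT, RTF1 and IPO11, and above DNMT1 at 0.867.

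The nearest relatives of the family outside it, the 10 kinases made up of the DYRK and CLK genes and PRPF4B, were all tested. With each siRNA 1 was higher, the same gene in both. That was 10% of the list, against 14.8% of all genes called with siCDO1A and 4.77% with siCDO1C. DYRK2, a kinase of p53 and of other regulators of growth, had 28.6 ± 1.95 CPM in siCtrl, 35.05 ± 1.69 in siCDO1A and 36.9 ± 3.37 in siCDO1C cells (SD, n = 3). Against siCtrl this was a log2 fold change of 0.30 for siCDO1A (adjusted p = 0.0229) and of 0.36 for siCDO1C (adjusted p = 0.0490). In the fit with a replicate block neither was called (adjusted p = 0.0782 and 0.0681). Leaving out siCtrl replicate 2 or 3 or siCDO1A replicate 2 ended the first (adjusted p up to 0.112), and any single library but siCDO1C replicate 2 the second (up to 0.216). Without siCDO1C replicate 2, 2 of the 10 were higher with siCDO1C, where 6.78% of all genes were called higher and 6.52% lower. Without siCDO1A replicate 3, 1 was higher and 0 lower with siCDO1A, where 11.2% of all genes were higher and 11.04% lower. The kinases had medians of 0.07 and 0.14, against 0.01 and -0.000233 over all genes tested. None differed between the siRNAs by edgeR or DESeq2, or at an unadjusted p under 0.05, where edgeR called 0.444% of all genes.

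Of 17 known regulators of HIPK proteins, mostly ubiquitin and SUMO ligases and binding partners, 1 was higher and 2 lower with siCDO1A. With siCDO1C 0 were higher and 1 lower. These calls were 17.65% of the list against 14.8% of all genes with siCDO1A, and 5.88% against 4.77% with siCDO1C. With the replicate block, which also called fewer of all genes, 1 was called with siCDO1A. Without siCDO1A replicate 3, 3 were higher and 2 lower, where 11.2% of all genes were higher and 11.04% lower, and without siCDO1C replicate 2, 1 was higher and 2 lower with siCDO1C. The ligases SIAH1, SIAH2, WSB1 and MDM2 had log2 fold changes between -0.07 and 0.23 in these comparisons and did not pass the threshold. DAZAP2, an adaptor that binds HIPK2, fell from 171 ± 7.08 CPM in siCtrl to 87.7 ± 11.2 CPM in siCDO1C cells, a log2 fold change of -0.97 (adjusted p = 1.52e-05). With siCDO1A it had 151 ± 8.17 CPM and -0.18 (adjusted p = 0.0419), a call lost with the block (adjusted p = 0.148) and without siCtrl replicate 1 or 2 or siCDO1A replicate 1 or 2 (up to 0.213). The difference of siCDO1C from siCDO1A in DAZAP2 was itself called, at -0.78 (adjusted p = 0.000476). TP53INP1, a partner of HIPK2 and p53, rose by 0.20 with siCDO1A (adjusted p = 0.0185, 0.0852 with the block, and up to 0.110 without siCtrl replicate 2 or 3). CASP6, a caspase that cleaves HIPK2, fell by 0.55 with siCDO1A (adjusted p = 0.0438), a call lost by DESeq2 and without any siCtrl library or siCDO1A replicate 1 (up to 0.198).

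Of 31 substrates and partners of HIPK proteins, 28 were tested, and 6 were higher and 6 lower with siCDO1A, 42.9% of the list against 14.8% of all genes. Of these 12 calls, 5 were left in number with the replicate block, which also called fewer of all genes. Without siCDO1A replicate 3 there were 11, with 17.9% of the list higher and 21.4% lower, against 11.2% and 11.04% of all genes. With siCDO1C, 2 were higher and 1 lower, 10.7% against 4.77% of all genes, and without siCDO1C replicate 2, 6 were higher and 2 lower, 21.4% and 7.14% against 6.78% and 6.52% of all genes. The medians were -0.08 and -0.06. YAP1, the co-activator held in check by the Hippo pathway, fell by 0.63 on the log2 scale after siCDO1A (adjusted p = 3.29e-05) and by 0.54 after siCDO1C (adjusted p = 0.00386). SMAD2, a mediator of TGF-β signals, rose by 0.29 (adjusted p = 0.0117, 0.0520 with the block and 0.0583 without siCtrl replicate 3) and by 0.49 (adjusted p = 0.00237). TLE1, a co-repressor of the Groucho group, fell by 0.53 with siCDO1A (adjusted p = 2.86e-05), and had -0.23 with siCDO1C (adjusted p = 0.132). The siRNAs were not shown to differ in TLE1 (adjusted p = 0.264).

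Target genes of pathways in which HIPK kinases act were described by the same counts. Of 21 p53 targets, 20 were tested, with 3 higher and 2 lower with siCDO1A (25% against 14.8% of all genes), 2 higher and 2 lower with siCDO1C (20% against 4.77%), and medians of 0.08 and 0.09. The 5 calls with siCDO1A were 3 with the replicate block, which also called fewer of all genes. Without siCDO1A replicate 3, 4 targets were higher and 1 lower with siCDO1A (20% and 5%, against 11.2% and 11.04% of all genes). Without siCDO1C replicate 2, 3 targets were higher and 3 lower with siCDO1C (15% each, against 6.78% and 6.52% of all genes). BTG2, an antiproliferative gene, rose by 0.28 (adjusted p = 0.00736) and 0.38 (adjusted p = 0.0104), and SESN1, a stress-induced sestrin, by 0.33 (adjusted p = 0.00205) and 0.34 (adjusted p = 0.0361). Both calls with siCDO1C were lost without any 1 of the 3 siCtrl libraries, with adjusted p-values up to 0.0710 and 0.147. FAS, a death receptor that signals through FADD, fell by 0.35 (adjusted p = 0.00140) and 0.30 (adjusted p = 0.0423), the second lost with the replicate block (adjusted p = 0.0763) and without any library but siCDO1C replicate 2 (up to 0.229). AEN, an apoptotic nuclease, rose by 0.28 with siCDO1A (adjusted p = 0.0151, 0.0560 with the block, and up to 0.101 without siCtrl replicate 2 or siCDO1A replicate 1 or 2). Of 10 Wnt targets, 8 were tested, with 1 higher and 1 lower with siCDO1A (25% against 14.8% of all genes). With the block, which also called fewer of all genes, 0 were called. CCND1, cyclin D1, fell by 0.17 (adjusted p = 0.0183, 0.113 with the block, and up to 0.0942 without siCtrl replicate 1 or 2 or siCDO1A replicate 1 or 2). ZNRF3, a ligase that removes Wnt receptors, rose by 0.28 (adjusted p = 0.0353, 0.101 with the block, and up to 0.115 without any library but siCDO1A replicate 2). With siCDO1C no Wnt target was called by edgeR or DESeq2, where edgeR called 4.77% of all genes. Of these targets 2 had an unadjusted p under 0.05, and 1 was higher and 1 lower without siCDO1C replicate 2. With siCDO1A, 1 Wnt target was higher and 1 lower without siCDO1A replicate 3 (12.5% each, against 11.2% and 11.04% of all genes). In 1 fit of all 9 libraries the siCDO1A calls of DYRK2, DAZAP2, TP53INP1, CASP6, AEN, CCND1 and ZNRF3 were lost as well.

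The genes that neighbour the HIPK genes were described in the same way. Within 500 kb of the 4 genes lay 128 other genes, of which 56 were tested. With siCDO1A 3 were higher and 1 lower, 7.14% against 14.8% of all genes, and 1 was called with the block, which also called fewer of all genes. Without siCDO1A replicate 3, 6 were higher and 1 lower, 10.7% and 1.79% against 11.2% and 11.04% of all genes. With siCDO1C 0 were called by edgeR or DESeq2, where edgeR called 4.77% of all genes, and 5 had an unadjusted p under 0.05. Without siCDO1C replicate 2, 0 were called with siCDO1C as well, where 6.78% of all genes were higher and 6.52% lower. Near HIPK3, 9 genes were tested, with medians of -0.02 and -0.11 and log2 fold changes from -0.42 to 0.47. Among them CSTF3, a subunit of the cleavage factor for mRNA 3′ ends that lies 94301 bases away, rose by 0.29 with siCDO1A (adjusted p = 0.0138, 0.0501 with the block, and up to 0.0767 without siCtrl replicate 1 or 3 or siCDO1A replicate 1 or 2). All 9 lay below HIPK3 in both comparisons, as did nearly all genes tested, because HIPK3 was chosen for its rise. Elsewhere, KDM7A, a histone demethylase near HIPK2, fell by 0.47 with siCDO1A (adjusted p = 0.00250). LUC7L2, a splicing factor also near HIPK2, had 0.22 (adjusted p = 0.0368, 0.117 with the block), and SNRPA, a U1 splicing protein near HIPK4, had 0.24 (adjusted p = 0.0189, 0.0811 with the block). Both of these calls were lost in 1 fit of all 9 libraries and without siCtrl replicate 1 or siCDO1A replicate 1 or 2. Without siCtrl replicate 3 that of LUC7L2 was lost, and without siCtrl replicate 2 that of SNRPA, with adjusted p-values up to 0.154 and 0.121 over these fits.

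**Figure D5:**
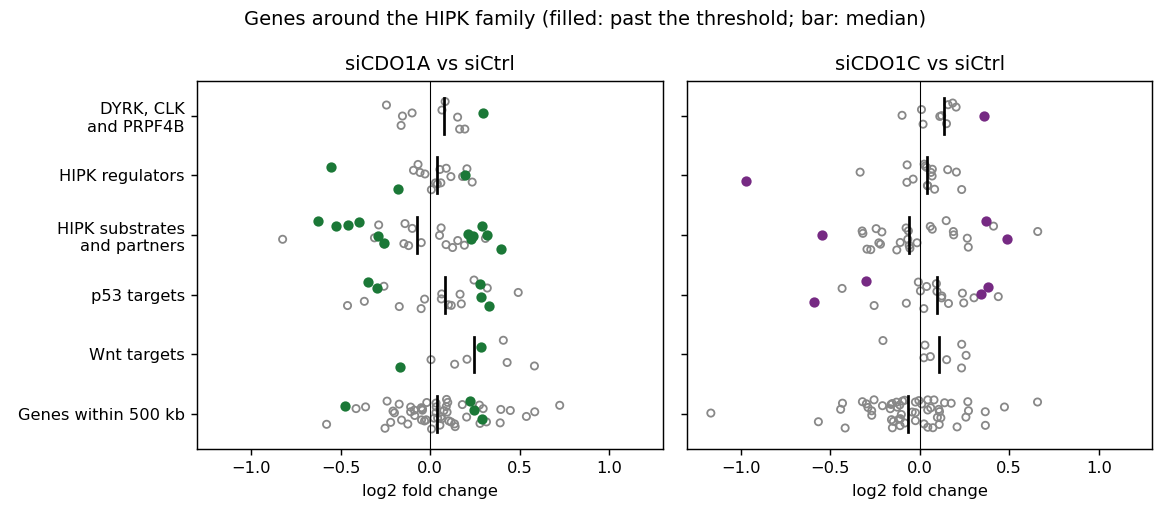
Log2 fold changes of the tested genes of 5 lists around the HIPK family and of the genes within 500 kb of a HIPK gene. Each circle is a gene (filled where the adjusted p was at most 0.05), spread vertically only for legibility, and vertical bars are list medians. Filled circles lie on both sides of 0 in 5 of the 6 groups with siCDO1A. All values lie below the 1.44 of HIPK3, a gene chosen for its rise.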

How the data were processed

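Poly(A) RNA of VCaP cells had been made into directional libraries and read from both ends. Per the submitters' processing notes, reads were aligned with HISAT2 2.0.5 to hg38, and the paper's methods name featureCounts as the counter. What the authors deposited are raw counts per gene, not normalized, and 3 columns that match no sample were not used. How featureCounts treated strand and reads with several matches is not given in the sources used here. Coordinates and gene lengths are those of the deposited table.

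Libraries were grouped by siRNA. Genes were kept by filterByExpr (minimum count 10, over the 9 libraries), scaled with TMM (factors 0.990 to 1.01) and compared by the quasi-likelihood test of edgeR 4.0.16 in R 4.3.3, with robust dispersions, on the 6 libraries of each comparison. P-values were adjusted by Benjamini-Hochberg over the 15555 genes tested, and an adjusted p of at most 0.05 was a call. With 3 against 3 libraries, an exact permutation test of 1 value cannot go below 0.1. Levels between genes were compared as CPM per kilobase. The scripts were tested on data with known answers.

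The members, gene lists and tests were chosen with earlier results of these data known. Named from each list were at most 4 genes, those called with both siRNAs in the same direction by the larger adjusted p, then those called with 1, and also the 5 genes most like HIPK3 by Pearson correlation of log2 CPM (prior count 2). SIAH1, SIAH2, WSB1 and MDM2 were named outside this rule, after their values were seen, and 2 genes that the rule names are not reported here. Lists were described by counts and medians without a set test. 3′UTRs were read from GENCODE 44 transcripts mapped to GRCh37, of which no coordinates are given, and a gene was counted as holding a word if any annotated 3′UTR did.

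In the labels, batch and replicate numbers are the same, so that same-numbered libraries are paired by label. Deviations of same-numbered libraries from their group means correlated between -0.370 and 0.372 across 11337 genes. The fit with this replicate block is given beside each result whose call it changes. Other alternatives were DESeq2 1.42.0, RLE size factors, a single edgeR fit of the 9 libraries, no filter, at least 10 counts in every library, an adjusted p of 0.01 and leaving out each library in turn.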

Additional observations from a re-analysis of the deposited data

Results flagged for a closer look

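DAZAP2, the adaptor that binds HIPK2, differed between the 2 siRNAs in the direct test. Its log2 difference of siCDO1C against siCDO1A was -0.7843 (standard error 0.0942, adjusted p = 0.000476, quasi-likelihood test of edgeR), with 87.7 ± 11.2 CPM in siCDO1C and 151 ± 8.17 CPM in siCDO1A cells (SD, n = 3). HIPK1 and HIPK2 were not called in this comparison, in which 0.444% of all genes tested were called.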

How the results depend on the processing

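HIPK3 kept its direction against siCtrl in every alternative run, with log2 fold changes from 1.313 to 1.53 with siCDO1A and from 1.349 to 1.566 with siCDO1C when 1 library was left out. HIPK1 ranged from 0.206 to 0.3715 and from 0.3185 to 0.5143, HIPK2 from -0.2605 to -0.1217 and from -0.2122 to 0.0848, and HIPK2 between the siRNAs from -0.0466 to 0.2552. The last was reversed without siCDO1C replicate 1 (-0.0466) or 3 (-0.0331) and HIPK2 with siCDO1C without siCDO1C replicate 2 (0.0848). HIPK1 with siCDO1A was no longer called in 1 fit of all 9 libraries (0.3089), and HIPK2 with siCDO1A was called without a filter on low counts (-0.1649). HIPK4 passed the filter in no fit that used one and has no fold change here.

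With the replicate block, HIPK1 had 0.3059 for siCDO1A (adjusted p = 0.0315) and 0.3829 for siCDO1C (adjusted p = 0.0183), and the block changed the call of no named gene other than those given with it in the report. The genes called with siCDO1A numbered 2309, and 1369 in 1 fit of all 9 libraries, 1358 with the replicate block, 1107 at an adjusted p of 0.01 and 1292 to 3454 with 1 library left out. With siCDO1C they numbered 742, 282 at an adjusted p of 0.01 and 263 to 2068 with 1 library left out, the highest without siCDO1C replicate 2. Between the siRNAs they numbered 69, and 104 by DESeq2, 128 in 1 fit of all 9 libraries, 153 without a filter, 121 with the replicate block, 24 at an adjusted p of 0.01 and 18 to 447 with 1 library left out.

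Without scaling by length, HIPK3 was 5.4002%, 13.92% and 13.489% of the family in siCtrl, siCDO1A and siCDO1C cells, and the ratio of HIPK1 to HIPK3 was 3.217, 1.4732 and 1.562. With 7 letters in place of 8, HIPK2 held 1 copy of the word and HIPK3 2. By Spearman correlation, 0 of the 5 genes most like HIPK3 remained. The causes of these changes were not tested. HIPK4 had at most 1 count in a library, so that a difference between groups was not detectable at this depth.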
